A study of Mus musculus with 6 samples.

Results

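The clustered protocadherins are cell-surface proteins of the cadherin superfamily whose genes stand in 3 tandem arrays on mouse chromosome 18. They were taken as all protein-coding genes of the GENCODE M21 annotation (assembly mm10) whose names begin with *Pcdha*, *Pcdhb* or *Pcdhg* on that chromosome. This gave 57 of 21938 protein-coding genes: 14 α genes, 22 β genes and 21 γ genes, the latter comprising 12 of the A type, 6 of the B type and 3 of the C type. The annotation gives the name *Pcdha11* to 2 genes (ENSMUSG00000007440.10, starting at 37005203, and ENSMUSG00000102206.5, starting at 37010712), so that the 57 genes carry 56 names. *Pcdhgb8*, annotated as a polymorphic pseudogene, was not included. All 57 genes lie on the plus strand, with the α array at chr18:36930184-37187661, the β array at chr18:37264938-37524479 and the γ array at chr18:37661793-37841873.

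Acetylation of histone H3 at lysine 56 (H3K56ac), a mark in the globular core of the histone that the deacetylase SIRT6 removes, was mapped by ChIP-seq in mouse embryonic stem cells (mESCs) of the V6.5 line grown on feeder cells. Both groups carried a lentiviral shRNA construct: a scrambled sequence in the Scramble group and a sequence against *Sirt6* in the Sirt6 KD group. Each group had 2 H3K56ac libraries and 1 input library, 6 in all. The processed file used here is 1 set of 11106 peaks merged over the libraries, with a start and an end for each peak and no value per library, so that from it Scramble and Sirt6 KD cells could not be compared and the spread between replicates could not be measured. The file holds no read counts, and the read numbers that the study lists per library were not used here. A promoter with a peak below is therefore a place where at least 1 of the peak lists that went into the merged set had a peak. A place without a peak was not called at the depth of these libraries, which does not show that the mark was absent. The 14 mESC marker genes examined (among them *Pou5f1*, *Nanog* and *Sox2*) all had some base of a peak no more than 1 kb from a transcription start site (TSS), 6 of them with the peak midpoint there. Of 14 markers of fibroblasts, the usual feeder cell, 1 (*Fn1*) had a peak base that close and 0 had a midpoint there, and the part that feeder chromatin has in the peaks was not tested.

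In the α and γ arrays, each gene has its own promoter and its own large variable first exon, which encodes the extracellular cadherin domains and is spliced to a shared set of constant exons at the end of the array. The β genes have no constant exons. Neurons choose a small combination of the alternative promoters per cell, which gives cells a surface identity used in self-recognition, whereas the C-type genes are chosen less at random. CTCF and cohesin, which fold distant enhancers onto the promoters, and DNA methylation of the promoters are the best known regulators of the choice.

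The γ array carried the mark at 4 alternative promoters and neither of the other arrays carried it at any. The midpoint of a peak lay at most 1 kb from an annotated TSS for *Pcdhga1*, *Pcdhga7*, *Pcdhga8* and *Pcdhgc3*, 4 of 57 genes or 7.02% (Wilson 95% interval 2.76 to 16.7%). The same was true of 33.9% of all protein-coding genes and of 38.4% (175 of 456) of the other protein-coding genes of chromosome 18. When a single peak base within 1 kb was enough, the count was again 4 of 57, against 35.7% of all protein-coding genes. Within the family, 0 of 14 α genes and 0 of 22 β genes had a promoter peak, and a count of 0 in 36 genes allows a share of up to 8.33%. In the γ array 4 of 21 genes (19.0%, Wilson 95% interval 7.67 to 40.0%) had one: 3 of 12 A-type genes, 0 of 6 B-type genes and 1 of 3 C-type genes. These intervals and limits cover counting error only, and neighbouring promoters of a tandem array are not independent of each other.

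**Figure D1:**
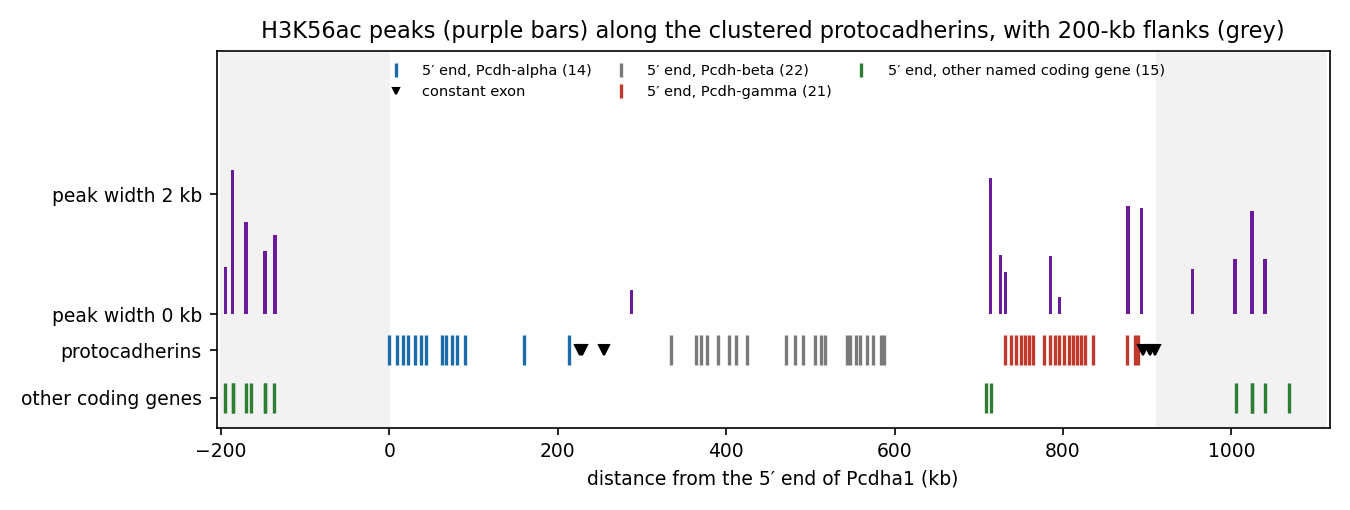
H3K56ac peaks along the 3 arrays and 200 kb on either side, by distance from the 5′ end of *Pcdha1* in kb. Purple bars mark peaks and their height is the peak width in kb, ticks mark the 5′ ends of genes by array, and triangles mark constant exons. The only peak between the upstream flank and *Taf7* is the 398-bp peak between the α and β arrays, while 5 peaks lie in the γ array.

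The 4 marked promoters differed in the width of their peaks. *Pcdhga1*, the first gene of the γ array, had a peak of 710 bp (chr18:37661612-37662321) that covered its TSS and had its midpoint 174 bp downstream of it. *Pcdhga7* had a peak of 973 bp (chr18:37714698-37715670), whose midpoint lay 366 bp downstream of the TSS. The peak at *Pcdhga8* (chr18:37725754-37726036) was 283 bp wide, narrower than most of the set, at the 6.75th percentile of width, and its midpoint was 189 bp downstream of the TSS. The widest was the peak of 1803 bp at *Pcdhgc3* (chr18:37806324-37808126), one of the C-type isoforms, with its midpoint 809 bp downstream of the nearest TSS. The median width over all 11106 peaks was 913.5 bp, so that *Pcdhga7* and *Pcdhgc3* had peaks wider than the median and *Pcdhga1* and *Pcdhga8* had narrower ones. Counted over wider peaks alone, the promoter share was 3.51% (2 of 57). No share over all protein-coding genes at this setting stands beside it, so it is not comparable with the share given above for all peaks. All 4 midpoints lay downstream of the TSS and inside the variable first exon, which spans 2568 to 2611 bp in these 4 genes, and the *Pcdhga8* peak lay wholly inside that exon.

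The 1-kb limit did not divide closely spaced values. The genes nearest to it on the far side were *Pcdhgc5*, at 3955 bp from a peak midpoint, *Pcdhgb5* at 5114 bp, *Pcdhgb4* at 5185 bp and *Pcdhga2* at 6986 bp. *Pcdhgb4* stands between *Pcdhga7* and *Pcdhga8*, and its nearest midpoint was the one at *Pcdhga7*. The nearest midpoint for *Pcdhgb5* was the one at *Pcdhga8*, and for *Pcdhga2* the one at *Pcdhga1*. The 17 unmarked γ genes had a median distance of 16199 bp, up to 39685 bp for *Pcdhga12*. In the α and β arrays together the median was 156467 bp, and no gene of either was closer than 46904 bp (*Pcdhb1*). Among α genes, the distance ran from 74531 bp for *Pcdhac2*, the last of the array, to 210783 bp for the first *Pcdha11* gene. Among β genes, the farthest was *Pcdhb12* at 208550 bp. The distances of the γ genes thus did not overlap with those of the α and β genes. Over all protein-coding genes the median distance was 23121.5 bp. The α and β distances were all measured to the peak of *Zmat2*, the peak between α and β or the peak of *Taf7*. They therefore describe the places of those peaks and are not separate values for each gene.

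**Figure D2:**
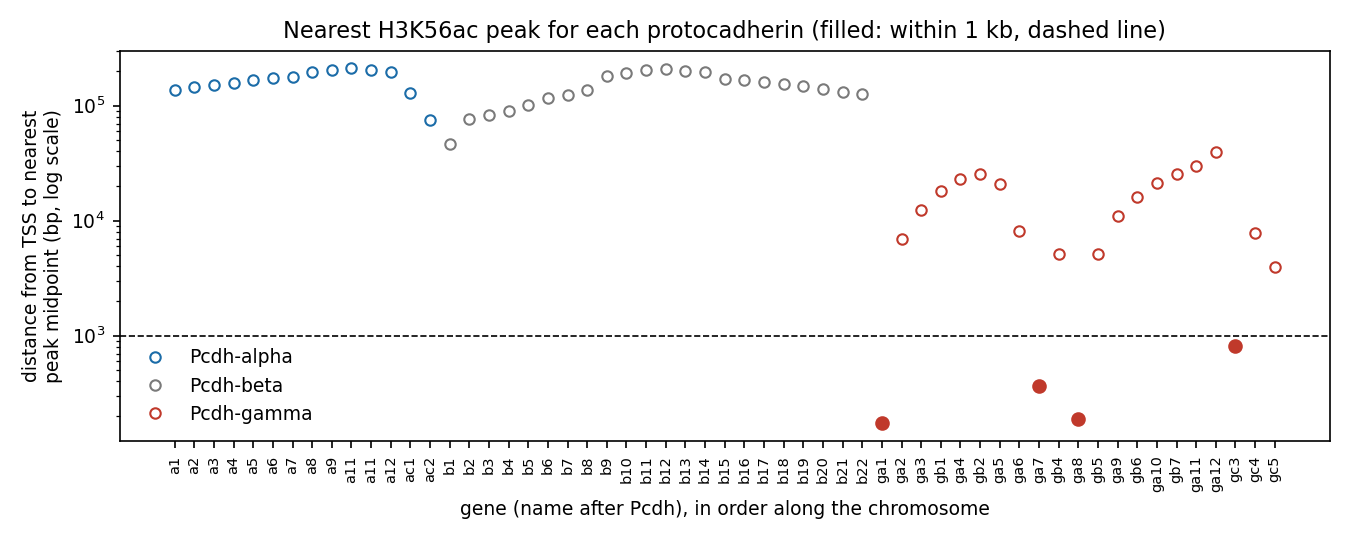
Distance in bp (log scale) from the nearest annotated TSS of each gene to the nearest peak midpoint, with the 57 genes in their order on the chromosome and filled points for those within 1 kb (dashed line). The 4 filled points are γ genes at 174 to 809 bp, the other γ genes lie at 3955 to 39685 bp, and the α and β genes at 46904 to 210783 bp.

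The arrays also differed in the base composition of their promoters, which the choice of genes did not use. Promoters were called CpG-rich where the ratio of observed to expected CpG dinucleotides within 500 bp of the gene's 5′ end was over 0.6. This call set no limit on GC content, so it does not mark a promoter as a CpG island. By this measure 12 of 14 α promoters, 0 of 22 β promoters and 10 of 21 γ promoters were CpG-rich, 38.6% of all members, and with a limit of 0.75 the share was 3.51%. The median ratio was 0.682 in the α array, 0.378 in the β array and 0.594 in the γ array, beside 0.552 over all protein-coding genes. In the α array it ran from 0.564 (*Pcdhac1*) to 0.749 (*Pcdha6*), in the β array from 0.158 (*Pcdhb9*) to 0.519 (*Pcdhb1*), and in the γ array from 0.233 (*Pcdhgc5*) to 0.864 (*Pcdhga11*). The α and β ranges did not overlap, and the γ range covered most of both. Median GC content was below that of all genes in each array: 45.4% for α, 41.3% for β and 47.1% for γ promoters, against 54.7% for all protein-coding genes. The C-type promoters of *Pcdhac1* (55.8%), *Pcdhac2* (57.7%) and *Pcdhgc3* (58.0%) lay above that value. Those of the C-type genes *Pcdhgc4* (50.4%) and *Pcdhgc5* (52.7%) lay below it.

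A CpG-rich promoter in these arrays carried a peak in 2 of 22 cases (9.09%, Wilson 95% interval 2.53 to 27.8%), against 57.6% of all CpG-rich protein-coding promoters and 58.0% (141 of 243) of the other CpG-rich promoters on chromosome 18. Both were γ promoters, *Pcdhga8* (ratio 0.744) and *Pcdhgc3* (0.797), and the α array had 0 of 12. The other 2 marked promoters, *Pcdhga1* (0.564) and *Pcdhga7* (0.592), fell just under the CpG-rich limit, and among CpG-poor members 2 of 35 were marked (5.71%). The share of marked promoters over all other protein-coding genes was higher at higher CpG ratios, from 3.73% at a ratio up to 0.2, through 11.9% (0.2 to 0.4), 32.4% (0.4 to 0.6) and 53.6% (0.6 to 0.8), to 62.9% above 0.8. The members gave 0 of 1, 0 of 13, 2 of 21, 2 of 21 and 0 of 1 in the same classes. Most CpG-rich members had a GC content under 50%. Of 321 other CpG-rich promoters with a GC content under 50%, 202 had a peak (62.9%, Wilson 95% interval 57.5 to 68.0%), against 1 of 19 members of that class, of which 11 were α and 8 γ genes. With a ratio of 0.4 to 0.6 and a GC content under 50%, 32.3% of other promoters and 2 of 20 members had a peak.

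**Figure D3:**
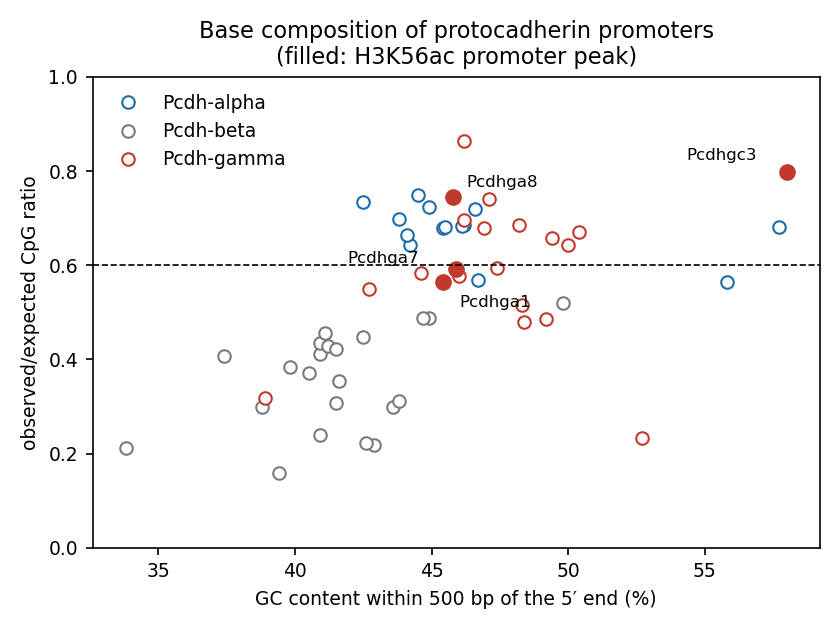
Ratio of observed to expected CpG against GC content (%), both within 500 bp of the 5′ end, for the 57 promoters, with filled points for the 4 with a promoter peak and a dashed line at the CpG-rich limit of 0.6. *Pcdhgc3* has the highest GC content of all members (58.0%), and *Pcdhga1*, *Pcdhga7* and *Pcdhga8* lie among unmarked α and γ promoters.

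Within the γ array, base composition overlapped between marked and unmarked promoters. The 4 marked promoters had CpG ratios of 0.564 to 0.797 and the 17 unmarked ones of 0.233 to 0.864. The highest ratio of the whole family, at *Pcdhga11*, belonged to a promoter that was 29836 bp from a peak. GC content was 45.4 to 58.0% in marked and 38.9 to 52.7% in unmarked promoters, so that *Pcdhgc3* alone lay above the unmarked range. An annotated antisense noncoding gene lay within 1 kb of the 5′ end at all 4 marked promoters: Gm37118 at *Pcdhga1*, Gm37165 at both *Pcdhga7* and *Pcdhga8*, and BC037039 at *Pcdhgc3*. This was true of 5 of the 17 unmarked γ genes, among them *Pcdhgb4* with Gm37165, and of 5 of the 36 α and β genes. The feature was looked at after the marked promoters were known and is a description of the annotation. It was counted for the members only, so no share over all protein-coding genes stands beside it. The annotated noncoding starts nearest to the midpoints were those of Gm37118 at 665 bp from the *Pcdhga1* midpoint, Gm37165 at 226 bp from the *Pcdhga8* midpoint and BC037039 at 697 bp from the *Pcdhgc3* midpoint. At *Pcdhga7* the body of Gm37165 runs over the 5′ end, and the nearest noncoding start lay 9205 bp from the midpoint. The *Pcdhgc3* peak covered both the sense start and the BC037039 start. The *Pcdhga1* peak covered the sense start and no noncoding start, and also overlapped an exon of the noncoding gene 3222401L13Rik. The *Pcdhga8* peak covered neither start. ChIP-seq peaks carry no strand, so at these 3 promoters the peaks alone cannot tell a signal of the sense start from one of the antisense start.

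The promoters of this family resemble each other in sequence, and only reads with a single place in the genome had been kept. As a measure of this, the share of 75-base words (the read length in the study's methods, beside which its list of libraries gives a slightly longer one) within 500 bp of the 5′ end that occur again anywhere in the assembly averaged 2.76% over the 57 promoters. It was above 0 for 19 of them and highest at the first *Pcdha11* gene (22.0%). Of the 14 α promoters, 11 had such words, against 4 of 22 β promoters and 4 of 21 γ promoters. Among CpG-rich promoters, 63.6% of members and 83.3% of α genes had such words, against 8.51% of other protein-coding genes. In the 500-bp window none of the 4 marked promoters had any, and 4 of the 17 unmarked γ promoters did, with 9.28% at *Pcdhgb4* and 5.18% at *Pcdhgb5*. The unmarked α promoters of *Pcdha8*, *Pcdhac1* and *Pcdhac2* had 0%. With 1 kb on either side, the marked promoter of *Pcdhga8* had 3.22%. Unmarked *Pcdhga9* (3.22%) and *Pcdhga10* (0.934%) then had such words too. In that wider window *Pcdha8* had 7.68%, and *Pcdhac1* and *Pcdhac2* stayed at 0%. What part unplaced reads have in the missing peaks was not tested.

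A core of the CTCF motif, AGNNGGCGC on either strand, was searched from 300 bp before to 100 bp after each 5′ end. It was present at 5 of 57 members (8.77%), namely *Pcdha5*, *Pcdhac1*, *Pcdhb15*, *Pcdhb16* and *Pcdhga2*, against 10.8% of other protein-coding genes. The share was 4.55% of CpG-rich members against 19.2% of other CpG-rich promoters, and 11.4% of CpG-poor members against 3.71% of other CpG-poor promoters. None of the 5 had a promoter peak. In the wider window of 500 bp on either side, 10 of 57 members (17.5%) and 20.9% of other protein-coding genes held it, with 18.2% against 36.3% for CpG-rich and 17.1% against 7.92% for CpG-poor promoters. A match is a stretch of letters only, and a lack of one says nothing about binding of CTCF.

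The constant exons, whose starts all 14 α genes or all 21 γ genes share, carried no peak. The 3 α constant exons (chr18:37156155-37156213, chr18:37159265-37159353 and chr18:37184946-37187657) were 61622, 58482 and 30178 bp from the nearest peak edge. The 3 γ constant exons (chr18:37825021-37825079, chr18:37833265-37833353 and chr18:37839903-37841873) were 522, 8766 and 15404 bp away. The peak 522 bp before the first γ constant exon was 1781 bp wide (chr18:37822719-37824499) and lay between that exon and the variable exon of *Pcdhgc5*, the last γ gene. Its midpoint was 3955 bp downstream of the *Pcdhgc5* TSS, in an intron of the spliced transcript that a retained-intron transcript covers. The peak overlapped exons of the noncoding gene Gm38182 and covered an annotated start of that gene, 270 bp from the midpoint.

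Of the 8 peaks between the start of *Pcdha1* and the end of the γ array, 5 lay in the γ array and 3 between arrays. The γ array had 27.8 peaks per Mb and 2.98% of its bases in peaks, beside 3.26 peaks per Mb and 0.431% for chromosome 18 and 4.19 peaks per Mb and 0.545% for the genome. The peak between α and β (chr18:37217835-37218232) was 398 bp wide, at the 12.1th percentile of width. It lay 46904 bp upstream of *Pcdhb1* and 30178 bp past the last α constant exon, in no exon of a protein-coding gene. Between β and γ stood a peak of 2268 bp (chr18:37643037-37645304) with its midpoint 33 bp from the TSS of *Taf7*, which encodes a subunit of the general transcription factor TFIID. A peak of 995 bp (chr18:37655402-37656396) stood 5894 bp upstream of *Pcdhga1*. It covered an annotated start of the noncoding gene 3222401L13Rik, 8 bp from its midpoint, and overlapped an exon of that gene.

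The α promoters shared 1 stretch without a peak. It ran for 422754 bp (chr18:36795081-37217834), from the peak of *Zmat2* to the peak between α and β. Among 11085 stretches between neighbouring peaks, its length was at the 87.5th percentile, and 1450 stretches were 400 kb or longer. It held 13 CpG-rich 5′ ends of protein-coding genes, more than any other stretch: 12 α members and Gm42416, a locus that reads through the arrays. Gm42416 starts at 36952741, close to *Pcdha4* at 36952648, so their windows overlap and they are not separate promoters. The next highest counts were 12 in a stretch of 15700 kb on chromosome X and 12 in the 534-kb stretch that holds the *Hoxa* genes, developmental regulators of body axis identity. Of all the stretches, 4 held 10 or more. Without Gm42416 the α stretch would hold 12, level with the next highest counts. Overlapping 5′ ends in the other stretches were not merged either. These counts and the first rank of the α stretch hold for the CpG-rich limit of 0.6. The highest ratio among the α members was 0.749 (*Pcdha6*), and Gm42416 had 0.653. None of the 13 would therefore pass a limit of 0.75, at which the stretches were not ranked. The 22 β promoters lay in the next stretch, of 424804 bp (chr18:37218233-37643036), which held 23 5′ ends of protein-coding genes and 0 that were CpG-rich. The stretches between the γ peaks were shorter, with 7 γ 5′ ends in 52.4 kb between *Pcdhga1* and *Pcdhga7*, 2 in 10.1 kb up to the *Pcdhga8* peak (*Pcdhgb4* and *Pcdhga8* itself, whose 5′ end lies 48 bp before its peak), 7 in 80.3 kb up to *Pcdhgc3* and 2 in 14.6 kb after it.

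**Figure D4:**
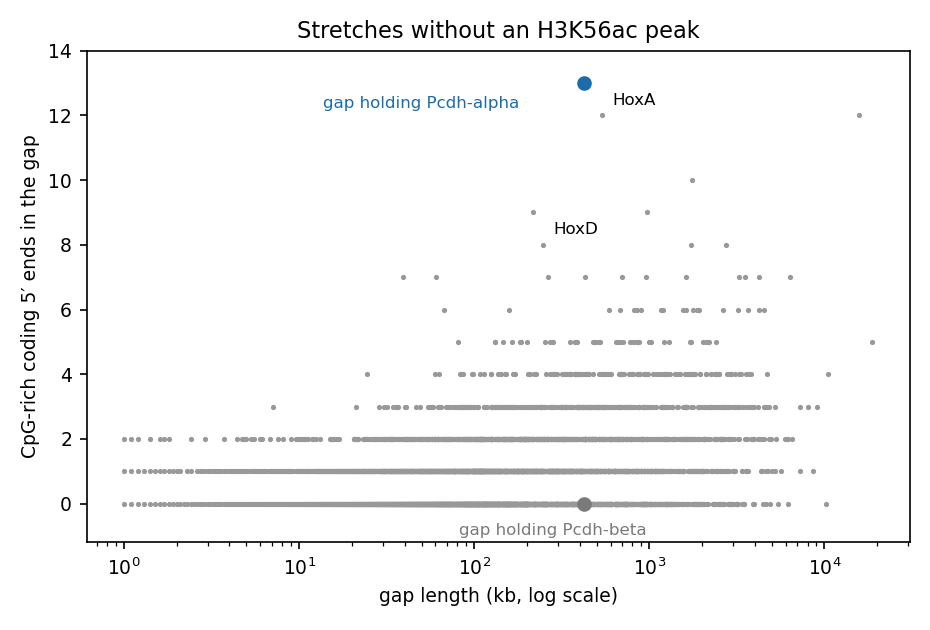
Number of CpG-rich 5′ ends of protein-coding genes in each of 11085 stretches between neighbouring peaks against the length of the stretch in kb (log scale), with the stretches that hold the α and β promoters and the *Hox* genes labelled. At the CpG-rich limit of 0.6, the α stretch holds 13, the highest count, and the β stretch of about the same length holds 0. The 13 include Gm42416, which starts close to *Pcdha4* and is not a separate promoter. None of the 13 has a ratio over 0.75.

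The neighbours of the arrays carried the mark at most of their promoters, beside 38.4% of the other protein-coding genes of chromosome 18. In the 200 kb upstream, 7 of 8 protein-coding genes had a promoter peak: *Tmco6*, the respiratory complex I subunit gene *Ndufa2*, the splicing factor gene *Ik*, *Wdr55*, the histidyl-tRNA synthetase genes *Hars* and *Hars2*, and *Zmat2*. The midpoints at these 7 genes were 82 to 544 bp from a TSS. *Ndufa2* and *Ik* shared a peak, and so did *Hars* and *Hars2*, so these genes are not separate cases. The exception among the 8 was *Dnd1*, which encodes an RNA-binding protein of germ cells, at 5896 bp. The peak of *Zmat2* was the last before the α array and ended 135 kb from *Pcdha1*. In the 200 kb downstream, *Hdac3* (a histone deacetylase), *Rell2* and *Fchsd1* were marked, with midpoints 206, 367 and 91 bp from a TSS. *Hdac3* and *Rell2* shared a peak. *Diaph1*, a formin gene, lay just past the limit at 1160 bp, and *Arap3* at 4821 bp. The nearest peak beyond the γ array was inside *Diaph1* (chr18:37883677-37884423), 41.8 kb away. The flanks held 5 peaks upstream and 4 downstream, which covered 3.56% and 2.15% of their bases. Between the β and γ arrays, *Taf7* was marked and *Slc25a2*, a mitochondrial ornithine carrier gene, was not (5426 bp).

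Few of the other superfamily genes examined had a promoter peak, beside 33.9% of all and 57.6% of CpG-rich protein-coding genes. Of 12 non-clustered protocadherins, which have a single promoter region each and lie outside the arrays, 0 had a promoter peak. That count allows a share of up to 25.0%. The nearest to one were *Pcdh12* (28442 bp) and *Pcdh1* (37464 bp), both on chromosome 18, and 8 of the 12 promoters were CpG-rich. Of 8 classical and related cadherins, 1 was marked: *Cdh1*, which encodes E-cadherin, the main cadherin of mESCs, had a peak of 3163 bp with its midpoint 764 bp from a TSS and 6 peaks in its body. The *Hox* genes, another family of tandem arrays with CpG-rich promoters, had 0 of 39 promoters with a peak, 25 of them CpG-rich, at distances of 19610 to 245044 bp. These counts of 0 allow shares of up to 7.69% for all and 12.0% for CpG-rich promoters.

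Of 19 genes for proteins known to act on protocadherin promoters, 14 had a promoter peak (73.7%, Wilson 95% interval 51.2 to 88.2%), beside 33.9% of all protein-coding genes. Of the 19, 15 had a CpG-rich promoter and 11 of these were marked (73.3%, Wilson 95% interval 48.0 to 89.1%), an interval that includes the 57.6% of all CpG-rich protein-coding genes. They included *Ctcf* (63 bp from a TSS), the cohesin genes *Rad21* (514 bp), *Smc1a* (79 bp) and *Smc3* (122 bp), the cohesin loader genes *Nipbl* (253 bp) and *Mau2* (148 bp), the cohesin release factor gene *Wapl* (357 bp) and *Smchd1* (358 bp), which encodes a chromatin protein that represses the clusters. Those without were the DNA methyltransferase genes *Dnmt3a* (53599 bp) and *Dnmt3b* (72164 bp), the H3K9 methyltransferase gene *Setdb1* (41824 bp), and *Pds5b* (8606 bp) and *Stag2* (916657 bp) of the cohesin complex, while their relatives *Dnmt1* (560 bp), *Pds5a* (170 bp) and *Stag1* (817 bp) were marked.

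**Figure D5:**
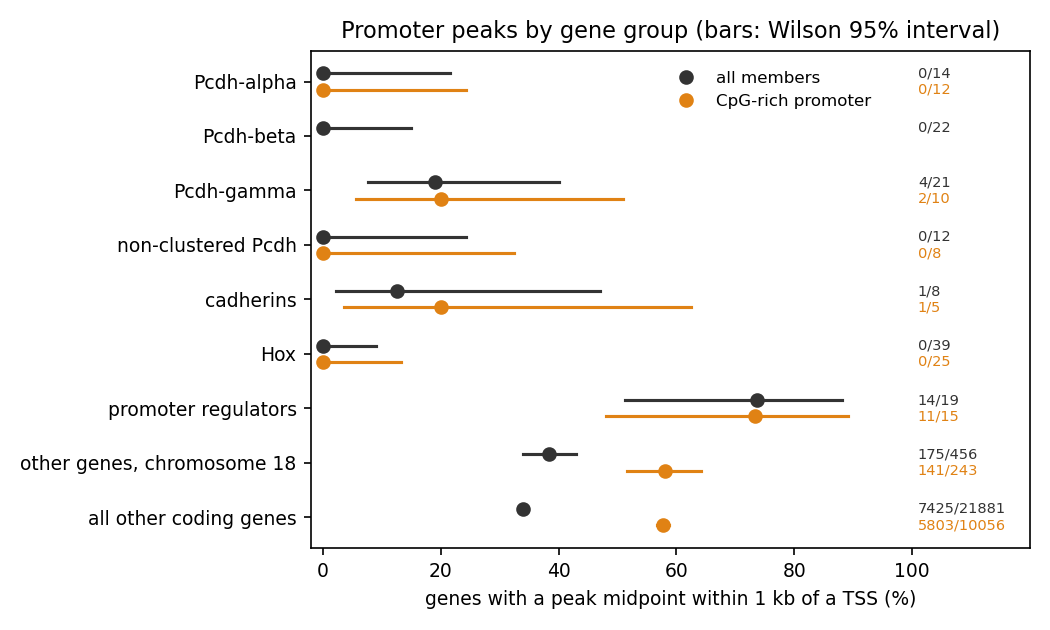
Share of genes (%) whose TSS lay at most 1 kb from a peak midpoint, for all members of each group (dark) and for those with a CpG-rich promoter (orange), with Wilson 95% intervals as bars and counts at the right. The α, β, non-clustered protocadherin and *Hox* groups are at 0, the γ group is at 19.0%, and the promoter regulators at 73.7%.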

How the data were processed

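H3K56ac ChIP-seq was carried out in Scramble and Sirt6 KD mESCs (2 H3K56ac libraries and 1 input per group). Per the study's methods, the authors trimmed reads with Trim Galore, aligned them with bowtie to mm10 keeping reads with 1 place in the genome, used Picard against duplicates and MACS2 for peak calling, dropped blacklisted regions and merged overlapping peaks. The deposited file holds peak positions, and its score column was written by the authors as 0 in every line, so the file gives no height or depth. Read numbers listed by the study were not used here. Positions are printed 1-based.

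Peaks were assigned to TSSs of all GENCODE M21 transcripts by midpoint, within 1 kb. CpG ratio and GC content were taken within 500 bp of the 5′ end, the motif from 300 bp before to 100 bp after it, and repeated words of 75 bases from the whole assembly. Constant exons were exons whose start at least 10 genes of an array share. Shares have Wilson 95% intervals, and a count of 0 is read as allowing up to 3 counts. No test was made, since the values are positions in 1 merged set. The members and all lists were chosen with earlier results of these data known. The named genes were members with a promoter peak, those with extreme values in each array, coding genes within 200 kb, and fixed lists. The alternatives covered the distance limit, the way a peak is counted, TSS set, peak width, CpG ratio, windows and flank size. The RefSeq gene starts and the classes of CpG ratio and GC content were chosen after seeing the data. Python 3.11.15, numpy 2.4.6, pandas 2.3.3, scipy 1.17.1, numba 0.67.0 and matplotlib 3.10.9 were used, and the scripts were tested on simulated data.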

Additional observations from a re-analysis of the deposited data

How the results depend on the processing

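Over 8 results, 20 alternatives were run, of which 15 left the value within its interval or close to it and 5 moved it. The promoter share was 7.02% in most settings, 5.26% with midpoints within 500 bp (without *Pcdhgc3*) and 3.51% with peaks wider than the median only. The values of 5.26% and 3.51% have no share over all protein-coding genes at the same setting beside them. A CpG ratio over 0.75 left 3.51% of members CpG-rich against 38.6%. With peaks wider than the median only, 5 peaks rather than 8 lay between the first and last gene, and the stretch without a peak grew from 424804 to 847956 bp and held 36 member 5′ ends, because the 398-bp peak between α and β was no longer counted. Flanks of 100 kb held 2 peaks and flanks of 500 kb held 16, against 9 within 200 kb. RefSeq gene starts again gave 7.02%. The CTCF core was at 17.5% of members within 500 bp, against 8.77%.

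No paired analysis was possible because the file holds merged positions with no value per library, and for the same reason fits without 1 replicate were not run. The file holds no read counts, so unmarked promoters are those without a called peak.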

Other observations

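The 3 protein-coding loci that read through the arrays were also without a promoter peak: Gm42416, Gm37013 and Gm37388 span 887, 863 and 857 kb, start among the α genes and lie 158321, 175496 and 181521 bp from the nearest midpoint.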
